A study of Mus musculus with 12 samples.

Results

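Oncostatin M, leukaemia inhibitory factor (LIF) and interleukin-6 (IL-6) are cytokines that share the receptor subunit gp130. Their genes, those of their receptors and those of the shared signalling steps were described here in primary mouse mammary epithelial cells with and without an inducible p190B transgene. The members were Osm, Lif and Il6, which encode the cytokines, Osmr, Lifr and Il6st, which encode receptor subunits with Il6st giving gp130, Stat3, which encodes the transcription factor they activate, and Socs3, which encodes a feedback inhibitor. Every probe set, the group of oligonucleotides on the array that reads 1 transcript region, was taken whose annotation gave exactly 1 of these 8 symbols. That gave 21 of 45101 probe sets, for 8 of the 18193 genes that had a probe set with 1 symbol. The genes were selected on membership of the pathway with their log2 differences between genotypes on these same arrays already known, that of Osm among them. Those differences are therefore a description, and the limma values printed beside them support nothing about these genes.

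All mice were FVB/N females, an inbred strain, and all carried MMTV-rtTA, in which a mammary tumour virus promoter drives a doxycycline-dependent activator in the mammary epithelium. The control group, 6 arrays, carried that transgene alone. The p190B group, 6 arrays, also carried TetO-p190B-IRES-luciferase, which places p190B RhoGAP (gene Arhgap5) and luciferase under the activator. From 5 weeks of age both groups ate chow with doxycycline at 2 g/kg, for 7 days, and at 6 weeks the mammary epithelial cells were taken. Setting the groups side by side asks what the p190B transgene changes in the transcriptome. The controls also carried the activator and ate doxycycline, so effects of these are shared by both groups.

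As background, a cytokine of this family brings gp130 together with a second receptor chain, and the attached JAK kinases phosphorylate STAT3, which then enters the nucleus. LIF signals through LIFR and gp130, IL-6 through the IL-6 receptor and gp130, and in the mouse oncostatin M acts mainly through OSMR and gp130. SOCS3, itself a product of a STAT3 target gene, binds gp130 and stops the signal. In the mammary gland LIF activates STAT3 at the start of involution, when the milk-secreting epithelium dies after weaning.

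The stretches before the transcription starts of 5 members are shown. Lif and Osmr each varied with Stat3 between arrays, and Lif, Socs3 and Il6 carry a searched motif. The windows of Lifr and Il6st held no match and are not printed. The stretches shown are the 250 bases before each start in RefSeq's GRCm38.p6 windows, printed 5′ to 3′ on the gene's strand. Capitals mark a match to a STAT motif (TTCNNNGAA), an AP-1 motif (TGANTCA) or an NF-kappaB motif (GGGAN followed by TTTCC), searched on both strands. The windows are chr11:4257318-4257567 (plus strand) for Lif, chr15:6874314-6874563 (minus strand) for Osmr, chr11:100939541-100939790 (minus strand) for Stat3, chr11:117969367-117969616 (minus strand) for Socs3 and chr5:30012864-30013113 (plus strand) for Il6.
Lif: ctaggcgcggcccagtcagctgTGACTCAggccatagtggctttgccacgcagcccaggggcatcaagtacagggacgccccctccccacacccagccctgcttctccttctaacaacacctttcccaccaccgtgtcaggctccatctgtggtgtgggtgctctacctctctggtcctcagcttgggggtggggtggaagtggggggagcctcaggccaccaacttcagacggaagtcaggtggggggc
Osmr: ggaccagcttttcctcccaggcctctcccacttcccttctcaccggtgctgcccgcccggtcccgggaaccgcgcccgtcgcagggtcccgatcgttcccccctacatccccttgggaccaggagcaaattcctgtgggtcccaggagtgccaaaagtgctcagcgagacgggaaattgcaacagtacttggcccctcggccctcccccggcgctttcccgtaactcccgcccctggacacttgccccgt
Stat3: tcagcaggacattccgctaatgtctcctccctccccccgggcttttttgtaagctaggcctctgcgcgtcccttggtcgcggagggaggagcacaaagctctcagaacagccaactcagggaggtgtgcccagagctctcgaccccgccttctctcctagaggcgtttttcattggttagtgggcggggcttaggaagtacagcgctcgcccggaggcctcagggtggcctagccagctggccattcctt
Socs3: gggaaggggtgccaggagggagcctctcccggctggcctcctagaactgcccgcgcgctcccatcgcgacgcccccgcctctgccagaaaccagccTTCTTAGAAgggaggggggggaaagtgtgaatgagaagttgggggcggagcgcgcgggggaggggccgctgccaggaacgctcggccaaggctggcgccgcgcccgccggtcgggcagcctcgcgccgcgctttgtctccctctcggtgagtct
Il6: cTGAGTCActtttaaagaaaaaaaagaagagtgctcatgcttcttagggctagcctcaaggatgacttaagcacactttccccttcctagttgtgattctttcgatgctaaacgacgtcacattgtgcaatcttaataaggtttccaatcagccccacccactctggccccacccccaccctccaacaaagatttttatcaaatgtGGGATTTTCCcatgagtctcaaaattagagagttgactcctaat

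Of the 8 members 7 matched the RefSeq windows, with 8 windows in all. Osm had no window, so the motif search did not cover it. The STAT motif was found in 1 member window, that of Socs3, as TTCTTAGAA from 154 to 146 bases before the start, and in 7.02% of all 32851 windows of this length. Its stricter form TTCCNGGAA, whose matches all lie within the STAT motif, was found in 0 member windows and in 0.913% of all windows. The AP-1 motif was found for Lif and Il6 and in 6.75% of all windows. The NF-kappaB motif was found for Il6, as GGGATTTTCC from 44 to 35 bases before the start, and in 0.356% of all windows. A match describes these letters and is not a binding site. In the same assembly Osm and Lif are neighbouring coding genes, as are Osmr and Lifr, and Stat5a lies next to Stat3.

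Values are MAS5 intensities as deposited, 1 per probe set and array, with precision limited by the array number. A log2 difference is p190B minus control of log2(intensity + 16), which understates the change of dim probe sets, and SE is its standard error in limma. Of the marker genes of the tissue, the 9 luminal and 8 basal epithelial markers measured were all above the filter on dim probe sets, a mean level of about 101 units. So were the 13 macrophage markers, listed for another cell type, although whether each is specific to that cell type was not tested. The summed luminal markers ran from 177054 to 214024 units in control and from 195722 to 206716 in p190B. Singly, 7 were higher and 2 lower in p190B, and limma called 0 (smallest adjusted p 0.233), beside 0.037% of all tested probe sets. At a limma unadjusted p under 0.05 there were 4 of 9, beside 9.32% of all tested probe sets. These were Cdh1 with a log2 difference of −0.48, Elf5 with 0.29, and Krt18 and Krt19 with 0.16 each. Lymphocyte content differed widely between arrays of both groups, with summed T and NK cell markers from 1117 to 10706 in control and from 1026 to 12679 in p190B. In bulk RNA, fewer cells of a type and less RNA per cell cannot be told apart. Arhgap5 itself had 4 probe sets with log2 differences from −0.32 to 0.41, and limma called 0 of them, with a smallest adjusted p of 0.258. The array's Gapdh control probe sets, whose 3′ over 5′ ratio tracks RNA integrity, gave log2 ratios of −0.49 ± 0.02 on control and −0.40 ± 0.06 on p190B arrays (SD, n = 6 per group). The ratio ran from −0.52 to −0.47 on control and from −0.48 to −0.32 on p190B arrays, so it largely followed genotype. A model that includes it therefore cannot cleanly separate the ratio from genotype, and its differences are imprecise.

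Among the cytokines, Osm, whose product is made mainly by blood-derived cells, gave the largest log2 difference of the 21 probe sets. Its only probe set, 1438767_at, ran from 206.9 over a median of 316.1 to 357.4 units in control and from 329.4 over 462.2 to 630.8 in p190B. The p190B arrays lay higher, 5 of 6 above every control array, and p190B replicate 6 fell within the control range. The mean was 466 ± 97 in p190B against 302 ± 56 in control (SD, n = 6 each). On the log2 scale the difference was 0.60 (SE 0.16). Differences at least this large in size were seen in 0.488% of the tested probe sets. Adding the Gapdh 3′ over 5′ ratio to the model left 0.34 (SE 0.23).

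Levels of macrophage and fibroblast markers are given beside Osm, and their part in its difference was not tested beyond the covariate named here. Of 13 measured macrophage markers, limma called 0 (smallest adjusted p 0.530) and 11 were higher in p190B, with a median log2 difference of 0.11, where 54.9% of all tested probe sets were higher. Their summed level ran from 67312 to 108127 units in control and from 77250 to 107031 in p190B. Much of it was Cd14, the brightest by mean, with 24388 to 33965 units in control and 24238 to 31374 in p190B. Which cells gave the Cd14 signal was not tested. With the mean of the macrophage markers as a covariate the Osm difference was 0.60 (SE 0.17). Of 8 fibroblast markers, limma called 0 (smallest adjusted p 0.475) and 6 were higher, with a median of 0.07, and their summed level ran from 133182 to 195008 units in control and from 162713 to 205363 in p190B. Of 8 neutrophil markers on the array, Cxcr2, Mpo, Elane and Camp were below the filter. Of the 4 past it, limma called 0 (smallest adjusted p 0.879), and 1 was higher and 3 lower in p190B, with a median of −0.16. The summed level of all 8 ran from 1193 to 3612 units in control and from 1420 to 3672 in p190B.

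The groups overlapped for both Lif and Il6. Lif, by its brighter probe set 1421207_at, ran from 1164 over a median of 1924 to 3023 units in control and from 1351 over 2123 to 3242 in p190B. The 2 ranges nearly coincided, and the log2 difference was 0.15 (SE 0.26), but −0.51 once the Gapdh ratio was in the model. The dim second Lif probe set, 1450160_at, gave −0.13 (SE 0.33) between 40.3 and 227.3 units. Both Lif probe sets are annotated to the same source sequence, yet after removal of genotype means they correlated at only r = 0.12 over the 12 arrays.

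Il6 was read by 1 bright probe set, 1450297_at, in both genotypes. It ran from 33042 over a median of 34488 to 39529 units in control and from 29090 over 32155 to 36336 in p190B. The p190B arrays lay somewhat lower, 4 of 6 below every control array, but p190B replicates 2 and 4 were inside the control range. The log2 difference was −0.12 (SE 0.06). It was −0.18 (SE 0.03) after quantile normalisation, where the limma adjusted p was 0.0742, the smallest of any member under the alternatives run. Saturation was not assessed for so bright a signal.

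Of the receptor genes, Il6st gave probe sets that disagreed. Probe set 1460295_s_at, of the class that can read more than 1 transcript, ran from 4593 over a median of 4956 to 5251 units in control and from 3513 over 4048 to 4565 in p190B. All 6 p190B arrays were below all 6 control arrays, and the log2 difference was −0.28 (SE 0.07). The brighter Il6st probe sets 1437303_at and 1452843_at gave 0.01 (SE 0.05) and 0.04 (SE 0.05), with overlapping groups. The fourth, 1421239_at, which is annotated to the same source sequence as 1460295_s_at, gave −0.14 (SE 0.14), and 0.26 once the Gapdh ratio was in the model. Across arrays, with genotype means removed, 1437303_at and 1452843_at correlated at r = 0.70, while 1437303_at and 1460295_s_at gave r = −0.04. The difference therefore appeared in 1 of 4 readings of Il6st.

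Osmr, which encodes the oncostatin M receptor chain, varied between arrays more than between genotypes. Probe set 1418674_at ran from 13789 over a median of 16905 to 23263 units in control and from 14523 over 15209 to 21211 in p190B. Control replicates 2 and 6 and p190B replicate 1 were the high arrays, and the groups overlapped, with a log2 difference of −0.13 (SE 0.12). The other Osmr probe sets gave −0.05 (SE 0.14) for 1418675_at and 0.11 (SE 0.33) for the dim 1459217_at, which was −0.58 once the Gapdh ratio was in the model. All 3 followed each other across arrays, with r from 0.81 to 0.96 after removal of genotype means.

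Lifr, which encodes the LIF receptor chain, was lower on most p190B arrays by its brightest probe set. Probe set 1454984_at ran from 6083 over a median of 6636 to 7318 units in control and from 4600 over 5984 to 7255 in p190B. The p190B arrays included 4 below every control array, replicate 2 lowest of all, while replicate 3 was near the top of the control range. Among these 4, replicate 6 at 6082.8 units was practically level with control replicate 2 at 6083. The log2 difference was −0.17 (SE 0.09), and −0.09 without p190B replicate 2. The other Lifr probe sets gave −0.11 (SE 0.08) for 1425107_a_at and −0.04 (SE 0.12) for 1450207_at.

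Stat3 and Socs3, the shared signal carrier and its inhibitor, were bright in both genotypes with overlapping groups. Stat3 probe set 1426587_a_at ran from 13536 over a median of 15458 to 17915 units in control and from 13248 over 16101 to 18343 in p190B, a log2 difference of 0.05 (SE 0.08). Probe sets 1460700_at and 1459961_a_at both gave 0.04 (SE 0.10 and 0.15). The dim 1424272_at gave 0.45 (SE 0.24), from 77 to 183.6 units in control and from 109.4 to 253 in p190B, and stood apart from the other Stat3 readings. Its difference was 0.25 without p190B replicates 1 and 3 and 0.23 once the Gapdh ratio was in the model.

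Socs3 was read by 3 bright probe sets with small differences of both signs, and saturation was not assessed for them either. Probe set 1455899_x_at ran from 24344 over a median of 25100 to 27626 units in control and from 22385 over 24001 to 28756 in p190B. The highest value was p190B replicate 1, and 4 of the other p190B arrays were below every control array. The log2 difference was −0.07 (SE 0.06), against −0.13 (SE 0.07) for 1456212_x_at and 0.04 (SE 0.08) for 1416576_at.

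**Figure D1:**
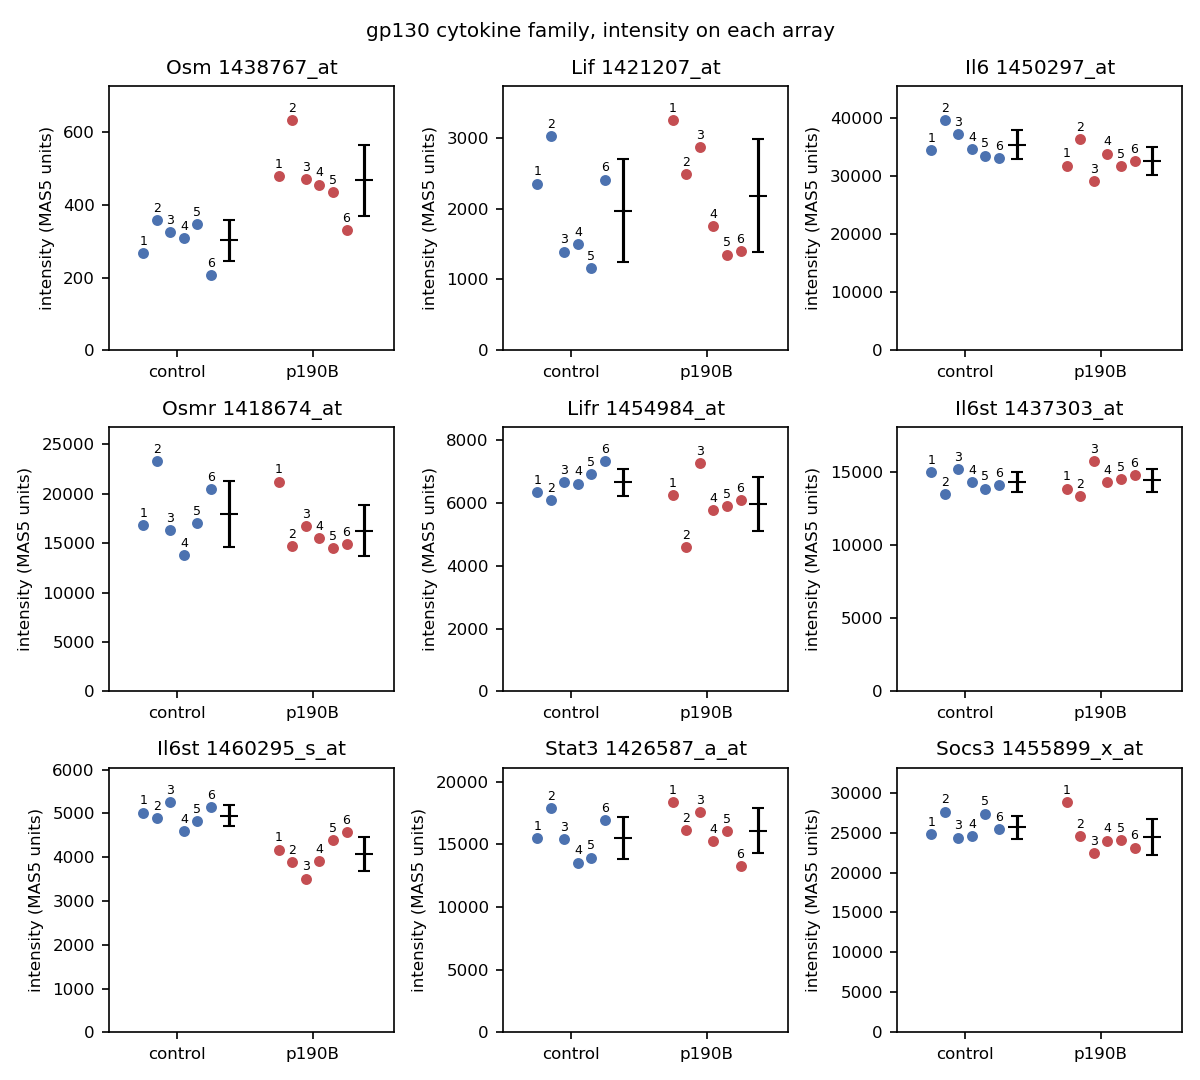
MAS5 intensity of 9 probe sets on each array, with the replicate number beside each point and the mean ± SD (n = 6) to the right of each group. For Osm, 5 of 6 p190B points lie above all control points, and for Il6st 1460295_s_at 6 of 6 lie below them, while Il6st 1437303_at, Stat3 and Osmr overlapped.

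Over all members, 10 probe sets were higher and 11 lower in p190B, with a median log2 difference of −0.04 beside 0.02 over all 27022 tested probe sets. All 21 had passed the filter on dim signal. The limma fit across all probe sets called 0 of the 21 at an adjusted p of 0.05, where it called 0.037% of all probe sets, and the smallest adjusted p among members was 0.168, for Il6st 1460295_s_at. At an unadjusted p under 0.05 the members counted 2 of 21, beside 9.32% of all probe sets. Groups that did not overlap were seen for 1 of 21, which was lower in p190B, beside 0.877% of all probe sets in either direction and 0.555% lower. Because the members were picked with this contrast known, nothing is read from these counts.

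**Figure D2:**
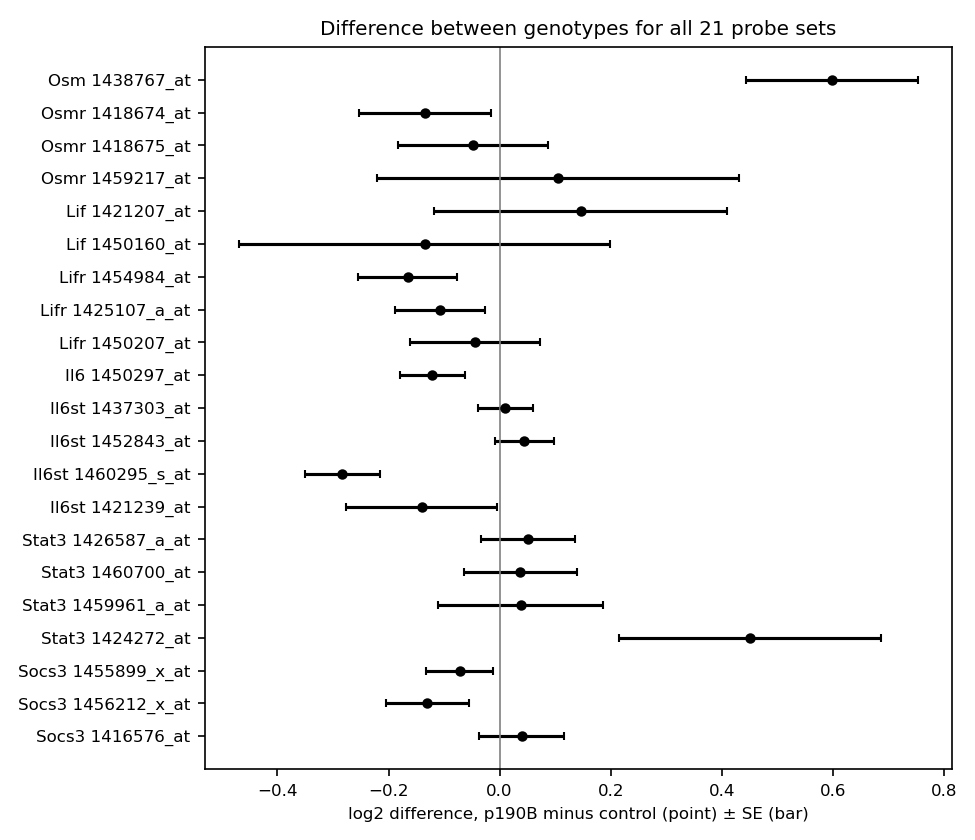
Log2 difference between p190B and control for each of the 21 probe sets, with the SE of the limma fit as bars. Osm at 0.60 and the dim Stat3 1424272_at at 0.45 stood to the right and Il6st 1460295_s_at at −0.28 to the left, and probe sets of 1 gene did not always share a direction.

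Variation between arrays of the same genotype was not used in choosing the members, so it was examined next. Lif and Stat3 rose and fell together across arrays, Osmr followed Stat3, and Lifr ran opposite to Il6. The brightest probe set stood for each gene, genotype means were removed, and 28 pairs were tested by permutation within genotypes with Benjamini-Hochberg adjustment over the pairs. By Pearson's r, 3 of 28 pairs passed an adjusted p of 0.05. Single arrays mattered: 0 pairs passed without control replicate 2, 0 without p190B replicate 3 and 5 without p190B replicate 2.

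Lif and Stat3 had r = 0.83 over the 12 arrays (permutation p = 0.00155, adjusted p = 0.0217) and Spearman's rho = 0.86 (permutation p = 0.00131, adjusted p = 0.0183). The correlation was 0.86 within control and 0.81 within p190B arrays. Without the 2 arrays with the most extreme Lif values, control replicate 5 and p190B replicate 1, r was 0.76 and the pair no longer passed. Among all tested probe sets, 0.892% were at least as strongly correlated with Lif as Stat3 was, and 1.86% with Stat3 as Lif was. These shares, and those given below, count correlations of the same sign only. With the second brightest probe set of both genes r was −0.04. Over all 8 pairs of Lif and Stat3 probe sets r ran from −0.39 to 0.89, with 5 positive.

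Osmr and Stat3 had r = 0.80 (permutation p = 0.00364, adjusted p = 0.0340), while rho = 0.66 did not pass (permutation p = 0.0309, adjusted p = 0.173). The correlation was 0.92 within control and 0.69 within p190B arrays. It was 0.65 without control replicate 2 and p190B replicate 1, the most extreme Osmr values, so it partly rests on them. Of all tested probe sets, 2.88% were at least as strongly correlated with Osmr, and 2.69% with Stat3. Over the 12 pairs of Osmr and Stat3 probe sets r ran from −0.25 to 0.81, with 10 positive. Osmr and Lif, the third pair of this trio, had r = 0.73 (permutation p = 0.00749) and did not pass after adjustment (adjusted p = 0.0524).

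Lifr and Il6 had r = −0.85 (permutation p = 0.00131, adjusted p = 0.0217), while rho = −0.71 did not pass (permutation p = 0.0154, adjusted p = 0.130). The correlation was −0.76 within control and −0.96 within p190B arrays, and −0.77 without control replicate 6 and p190B replicate 2. Of all tested probe sets, 0.104% ran as strongly against Lifr, and 0.3% against Il6. With genotype means kept in, r was −0.37, since both genes were slightly lower in p190B. With the second brightest Lifr probe set r was −0.37, with genotype means removed.

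For a further pair r and rho gave different calls. Il6st and Socs3 passed by rank, with rho = −0.89 (permutation p = 0.000950, adjusted p = 0.0183), but not by r = −0.72 (permutation p = 0.0177, adjusted p = 0.0966). Over all 12 pairs of Il6st and Socs3 probe sets r ran from −0.72 to 0.57, with 8 negative. Socs3 1455899_x_at, used here, gave r = 0.30 with 1456212_x_at and 0.21 with 1416576_at, which gave 0.76 with each other. Osmr and Socs3 had r = 0.67 (permutation p = 0.0207, adjusted p = 0.0966), which was 0.06 without control replicate 2 and p190B replicate 1. None of the 7 pairs with Osm passed, with a smallest adjusted permutation p of 0.292. Its r was −0.52 with Lifr, 0.52 with Il6, −0.41 with Il6st, 0.33 with Socs3, 0.21 with Stat3, 0.14 with Lif and −0.01 with Osmr. All these correlations come from the same 12 arrays, and quantile normalisation left 0 of 28 pairs past the threshold, with r = 0.81 for Lif and Stat3, 0.80 for Osmr and Stat3 and −0.69 for Lifr and Il6.

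**Figure D3:**
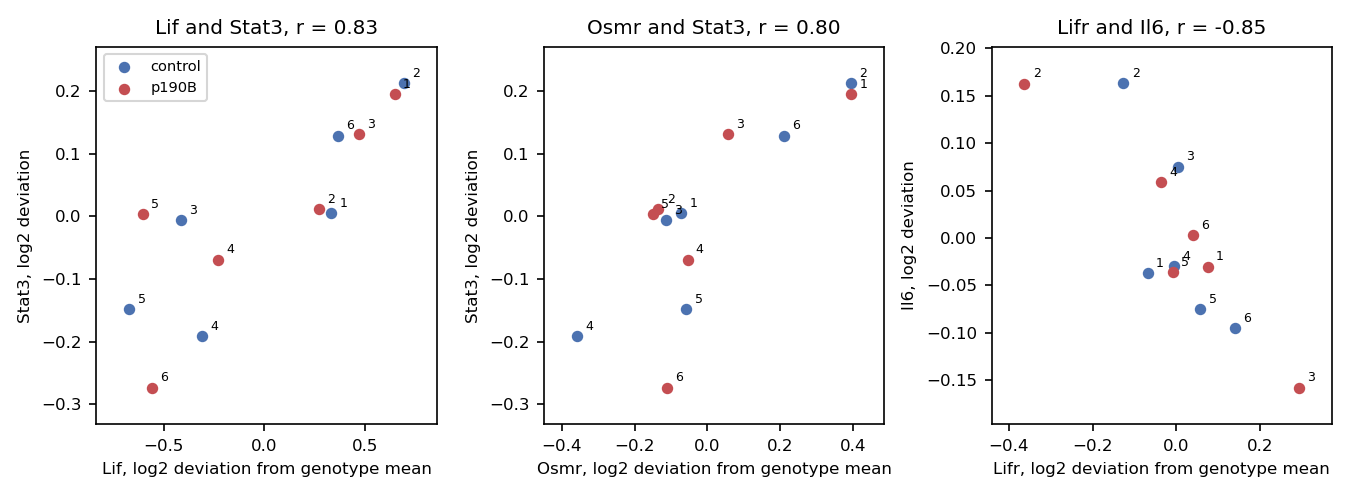
Log2 deviations from the genotype mean on each array for Lif and Stat3, Osmr and Stat3, and Lifr and Il6, with the replicate number beside each point. Control replicate 2 and p190B replicate 1 were high for Lif, Osmr and Stat3, and p190B replicates 2 and 3 marked the ends of the Lifr and Il6 relation.

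Marker levels of cell types were set against the same 8 genes over the 12 arrays, with genotype means removed. Of 112 relations, 0 passed a permutation test adjusted over all of them, and 9 had an unadjusted p under 0.05. Osmr and the mean of the basal epithelial markers, genes of the contractile outer layer of the mammary duct, had r = 0.82 and rho = 0.76 (permutation p = 0.00123 and 0.0105, adjusted p = 0.138 and 0.429). Osm and the mean of the fibroblast markers had r = 0.70 and rho = 0.78 (permutation p = 0.0136 and 0.00711, adjusted p = 0.411 and 0.429), and r with the macrophage markers was −0.03. The Osm and fibroblast r was 0.94 within control and 0.38 within p190B arrays, and 0.27 without control replicate 6 and p190B replicate 2. Lif, Osmr and Stat3, which form the pairs above, had r = −0.64, −0.68 and −0.68 with the endothelial and pericyte markers (permutation p = 0.0435, 0.0249 and 0.0236, adjusted p = 0.586, 0.464 and 0.464), with rho of −0.49, −0.48 and −0.63. With the Gapdh ratio the same genes had r = 0.95, 0.84 and 0.69 within p190B but −0.42, −0.58 and −0.42 within control arrays. The remaining relations with an unadjusted p under 0.05 involved Il6st, Socs3 and Osmr. Il6st and Socs3 had r = 0.72 and −0.55 with the endothelial and pericyte markers (permutation p = 0.0117 and 0.0497, adjusted p = 0.411 and 0.586). Osmr and Socs3 had r = −0.70 and −0.60 with the B cell markers (permutation p = 0.0147 and 0.0471, adjusted p = 0.411 and 0.586). The part of cell makeup and RNA quality in the pairs above was not tested.

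The genes most like each member over the 12 arrays were named by Pearson's r among 23286 probe sets with 1 symbol. They are the highest of many values and are a description. Osmr was followed most closely by Fhl2, a LIM-domain cofactor (r = 0.98), Cxadr, a junction protein (0.98), and Itga6, the integrin alpha 6 chain that anchors basal cells to the basement membrane (0.98). Lif was followed by Ptges, a prostaglandin E synthase (0.95), Resf1 (0.94) and Pde4b, a cyclic AMP phosphodiesterase (0.94). Il6 was nearest to S100a10, a calcium-binding protein family member (0.96), Tpm3, a tropomyosin (0.94), and Mrpl50, a mitochondrial ribosomal protein (0.93).

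For Stat3 the nearest were Aar2, a splicing factor (0.97), Wdr26, a subunit of a ubiquitin ligase (0.96), and Kmt5b, a histone methyltransferase (0.96). Socs3 was nearest to Tcim (0.94), Rbpj, the DNA-binding partner of Notch (0.90), and Ppp2ca, a phosphatase subunit (0.89). Lifr was nearest to Erf, an ETS repressor (0.94), Sbf2 (0.92) and Pdzd2 (0.92), and Il6st to Stradb (0.94), Zfpm1, a GATA cofactor (0.92), and Pomk (0.92). Osm had the weakest best match, Nup62, a nuclear pore protein (0.89), ahead of Clcn5, a chloride transporter (0.88), and Larp6, an RNA-binding protein (0.88).

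The rest of the pathway was read through 66 further genes, each by its brightest probe set, of which 65 passed the filter. These other ligands, receptors, kinases, inhibitors, STAT3 targets and immediate early genes included none that passed the test across all probe sets. limma called 0 of the 65 at an adjusted p of 0.05, beside 0.037% of all probe sets, with 6 at an unadjusted p under 0.05, beside 9.32%. Their median log2 difference was 0.02, as over all probe sets, with 39 higher and 26 lower, and the smallest adjusted p was 0.241.

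Among 4 other gp130 ligands past the filter, 0 were called. Clcf1, a cytokine of the CNTF branch, gave −0.39 (SE 0.16), Ebi3, a subunit of IL-27, 0.29 (SE 0.20) and Il11, which encodes interleukin-11, −0.16 (SE 0.15). The 2 other Clcf1 probe sets gave −0.01 and −0.02. Among 3 receptor genes, Cntfr, Il6ra and Il27ra gave 0.10, 0.05 and 0.04, and Il31ra, whose product pairs with OSMR, was below the filter. The IL-6 receptor gene Il6ra averaged 361 units in p190B and 343 in control.

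Of 9 kinases, STATs and adaptors, 7 were higher and 2 lower with a median of 0.07, and 0 were called. Tyk2, a JAK kinase, gave 0.21 (SE 0.08), Shc1, an adaptor, 0.12 (SE 0.06) and Jak2 −0.11 (SE 0.07). The second probe sets gave −0.16 for Shc1, 0.19 for Tyk2 and −0.07 for Jak2. Of 9 other inhibitors, 6 were higher and 3 lower with a median of 0.01, and 0 were called.

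Ptpn6, the phosphatase SHP-1 of blood cells, gave the largest log2 difference of the pathway genes, 0.63 (SE 0.17). Its brightest probe set ran from 602 to 941.1 units in control and from 654.3 to 1463 in p190B, with 5 of 6 p190B arrays above every control array. The limma adjusted p was 0.241, and 0.0371 without p190B replicate 1, where the difference was 0.79 (SE 0.12). The second Ptpn6 probe set gave 0.30 (SE 0.22). Socs7 and Ptpn1, inhibitors of cytokine and insulin signalling, gave −0.17 (SE 0.06) and −0.13 (SE 0.10). The other Socs7 probe sets past the filter gave 0.12 and −0.09, and the second Ptpn1 probe set −0.04.

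STAT3 target and acute phase genes had 13 higher and 11 lower of 24, with a median of 0.00, and limma called 0. Hp, which encodes the acute phase protein haptoglobin, gave −0.51 (SE 0.21), Fgg, the fibrinogen gamma chain, −0.21 (SE 0.20) and Saa3, a serum amyloid A, 0.19 (SE 0.20). Immediate early genes, which answer acute stimuli and cell isolation, had 10 higher and 8 lower of 18, with a median of 0.01 and 0 called. Klf4, a zinc finger factor, gave −0.20 (SE 0.05), with 0.08 by its second probe set. Ccn1, a matrix-associated growth regulator, gave −0.19 (SE 0.15), while its 3 other probe sets gave 0.03, 0.32 and 0.30. Fos, an AP-1 subunit, gave 0.11 (SE 0.06).

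**Figure D4:**
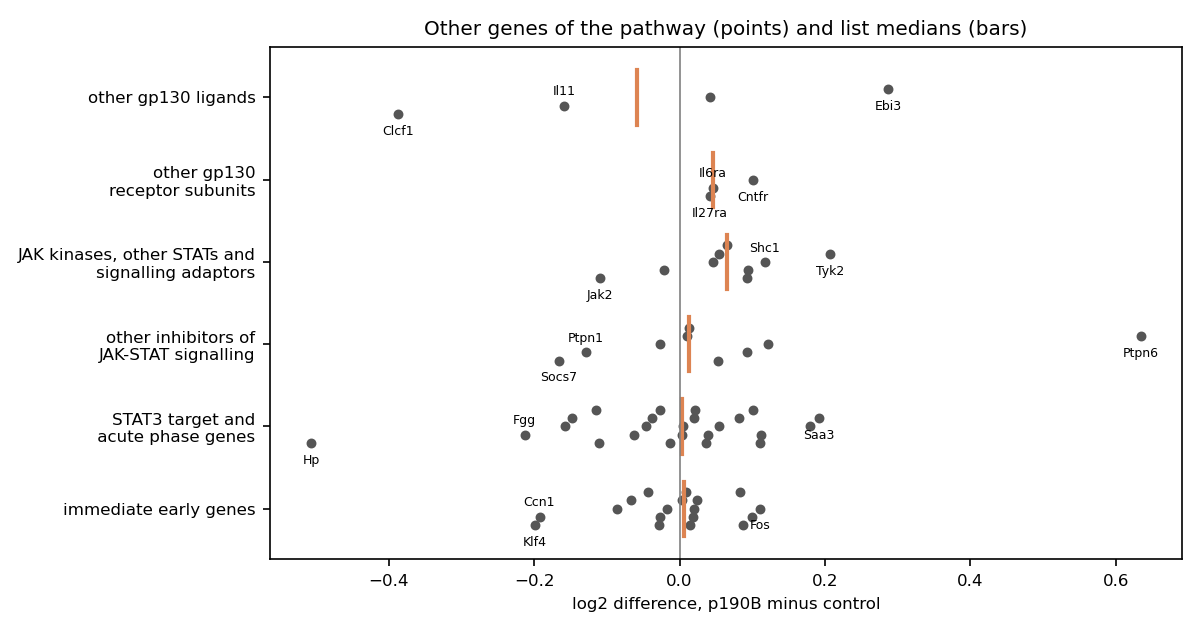
Log2 difference between p190B and control for the other genes of the pathway past the filter, 1 point per gene, in 6 lists with the list median as a vertical bar. The medians lay between −0.06 and 0.07, and Ptpn6 at 0.63 and Hp at −0.51 were the ends of the range.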

How the data were processed

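Biotinylated cRNA from total RNA of 12 samples was hybridised to 1-colour Affymetrix arrays, per the labels' protocols. The deposited table holds 1 linear intensity per probe set and array, from 0.1 to 64224.3. MAS5 is the algorithm in the submitters' processing notes, with version and target not given in the sources used here. The trimmed means were nearly equal, so the authors had scaled the arrays to 1 target.

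Groups and replicates came from the titles, which call them biological replicates, and symbols came from the platform annotation. Intensities were used as log2(value + 16). Probe sets at or above the 40th percentile of mean log2 value were tested (27022), using lmFit and a trended eBayes of limma 3.58.1 (R 4.3.3), two-sided with Benjamini-Hochberg adjustment at 0.05, checked on simulated data. Correlations used 100000 permutations within genotypes (numpy 2.4.6, Python 3.11.15), two-sided. Figures used matplotlib 3.10.9.

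The members, lists and tests were chosen with earlier results of these data known. Named are all member probe sets, the 3 largest differences of each pathway list, called genes, and the 3 genes most correlated with each member. Lists were read by each gene's brightest probe set. Alternatives were other pseudocounts, filters, scalings, eBayes settings, array weights, a replicate block, covariates and leaving out arrays. The titles do not say whether the replicate numbers pair the arrays, and the main fit used no pairing. Deviations of same-numbered arrays correlated from −0.29 to 0.41, the highest for number 4, which does not settle whether a pairing existed.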

Additional observations from a re-analysis of the deposited data

Results flagged for a closer look

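A single array stood well away from the rest in 4 of the 70 groups of 6 arrays that were looked at, where about 1 in 20 would do so by chance. Among the members both were p190B replicate 1. Its Osmr 1418675_at value was 12.46 (log2), above the 11.84 to 11.90 of the other p190B arrays, and its Socs3 1455899_x_at value was 14.81 against 14.45 to 14.59. Over whole arrays, control replicate 1 had a median log2 intensity of 7.80 where the other controls had 7.67 to 7.71. p190B replicate 5 had 7.82 where the rest of its group had 7.69 to 7.73.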

How the results depend on the processing

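limma called 0 member probe sets in the 25 alternatives run, 21 being tested in each except the filter at the 60th percentile, which kept 17. Osm stayed higher in p190B under all 25, from 0.34 with the Gapdh ratio to 0.69 without p190B replicate 6, and Il6st 1460295_s_at lower, from −0.32 to −0.19. Of the 21 differences, 11 took the other sign under some alternative and 10 did not. That of Lif 1421207_at was −0.51 with the Gapdh ratio as a covariate, and that of Lif 1450160_at ran from −0.27 to 0.45, that of Osmr 1459217_at from −0.58 to 0.34 and that of Il6st 1421239_at from −0.20 to 0.26. The count over all probe sets, 10, was 5 without a filter, 17 with a filter at the 60th percentile, 28 by quantile normalisation, 4 with equal medians, 3 without trend, 19 with array weights, 0 with the replicate block (2287 at an unadjusted p under 0.05), 0 with the Gapdh covariate (1803) and 5 if p190B replicates 1 and 3 were dropped. Leaving out 1 array at a time gave 4 to 9. The cause of these shifts was not tested. For pathway genes, leaving out 1 array at a time gave 0 to 1 called, the 1 being Ptpn6 without p190B replicate 1, and the other alternatives gave 0. The replicate block changed no call of a member or pathway gene.

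The count of member pairs, 3, was 0 by quantile normalisation, 1 with genotype means kept, 1 without the 2 most extreme arrays (Il6st and Socs3), 0 by the second brightest probe set, an alternative chosen after seeing the data, and between 0 and 5 on leaving out 1 array at a time. It was 0 without control replicate 2 or p190B replicate 3. By the second brightest probe sets Lif and Stat3 gave r = −0.0379.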
